A study of Homo sapiens with 32 samples.

Results

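The cytosolic ribosomal protein genes were followed in RH4, an established cell line from human alveolar rhabdomyosarcoma, after treatment with compounds aimed at the acetyltransferases CBP and p300. Members were chosen by symbol: RPL or RPS followed by a number with an optional A, X or L, plus RPLP0, RPLP1, RPLP2 and RPSA. This gave 82 of the 18980 coding genes in each RNA-seq table, 50 of the large and 32 of the small ribosomal subunit, and no measured value entered the rule. Of the 82, 79 had a mean of at least 1 in count_norm, the deposited counts scaled to the coding total of a library (CPM), and were tested. The other 3, RPL3L, RPL10L and RPL39L, did not reach that level.

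Of the 32 samples of the series, the 20 RNA-seq libraries were used. The treatments were A485, IHK-44, JQAD and dCBP, each at 100 nM and 1 uM and each for 2 h and 6 h, so that every compound had 4 libraries. DMSO, the solvent control, and a condition that the labels call NT without spelling it out each had 1 library at 2 h and 1 at 6 h. A485 is known as a catalytic inhibitor of both acetyltransferases, and the labels give the other compounds by code name alone. Every combination of compound, dose and time was 1 library of 1 line, so no condition had a replicate. The 4 libraries of a compound stood in for replicates in the tests, and their spread holds the effects of dose and time as well as technical error.

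Cytosolic ribosomes are built from ribosomal RNA and a large set of small basic proteins, whose genes are among the most highly expressed housekeeping genes of growing cells. Their messenger RNAs typically begin with a cytosine in a run of pyrimidines, the terminal oligopyrimidine (TOP) motif, through which mTORC1 and LARP1 control their translation. Their promoters are usually poor in TATA boxes, rich in CpG and bound by factors such as SP1, YY1 and GABP, and in growing cells by MYC proteins. CBP and p300 are best known for acetylating histones at enhancers and promoters.

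The start sites are shown because they carry the feature for which this gene family is known apart from its products. RefSeq promoters (GRCh38.p14, 250 bases before to 50 bases after the annotated start) were found for 65 members, with 80 starts in all. The windows below run 5′ to 3′ from 15 bases before the start, and the capitals mark the unbroken run of C and T that contains the start. The first 12 belong to genes called higher with dCBP, IHK-44 or both in the tests described further on, and the last 4 to RPL3, RPLP0, RPS6 and RPS14, which were called in neither.
RPL27A (chr11:8682777-8682806, plus strand): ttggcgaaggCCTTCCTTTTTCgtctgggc
RPL28 (chr19:55385917-55385946, plus strand): tcgcccctcgCCTTCCTCTTTCCgtctcag
RPL36 (chr19:5690280-5690309, plus strand): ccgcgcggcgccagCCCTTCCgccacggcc
RPL36AL (chr14:49620612-49620641, minus strand): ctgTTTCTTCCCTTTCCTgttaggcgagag
RPL38 (chr17:74203663-74203692, plus strand): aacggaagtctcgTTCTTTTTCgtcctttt
RPLP2 (chr11:809952-809981, plus strand): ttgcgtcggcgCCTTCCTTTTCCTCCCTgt
RPS13 (chr11:17077653-17077682, minus strand): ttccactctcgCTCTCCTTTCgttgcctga
RPS15 (chr19:1438381-1438410, plus strand): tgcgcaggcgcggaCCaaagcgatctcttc
RPS21 (chr20:62387088-62387117, plus strand): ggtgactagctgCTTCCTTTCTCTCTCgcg
RPS26 (chr12:56041903-56041932, plus strand): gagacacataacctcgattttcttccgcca
RPS27 (chr1:153990747-153990776, plus strand): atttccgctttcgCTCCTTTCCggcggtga
RPS28 (chr19:8321481-8321510, plus strand): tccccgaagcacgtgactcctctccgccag
RPL3 (chr22:39319609-39319638, minus strand): gtaaggccgaccggCCTCTaccggcgggat
RPLP0 (chr12:120201097-120201126, minus strand): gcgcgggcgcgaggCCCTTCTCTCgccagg
RPS6 (chr9:19380222-19380251, minus strand): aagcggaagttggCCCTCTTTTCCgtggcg
RPS14 (chr5:150449725-150449754, minus strand): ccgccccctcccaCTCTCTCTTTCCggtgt

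A run of at least 5 pyrimidines lay over the start in 9 of the 12 called genes shown and in 4 of the 4 others. RPL13A, called higher with dCBP and not shown, had a run of 14. The 4 others were picked as well-known members, and RPL9, RPL10A, RPL27 and RPS4X, also called in neither, had no run at the annotated start. The counts are thus not a comparison of called with uncalled genes. RPS15, RPS26 and RPS28 had a shorter run or none there, which says only that these letters are not at the annotated position. Over the 80 member starts, 63.8% had a run of at least 5 and 57.5% a run of at least 8, against 9.60% and 4.72% of the 35116 promoters in the table. Of the 85 starts of mitochondrial ribosomal protein genes, 2.35% had a run of at least 8.

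Member promoters held a median of 23 CpG in 300 bases (range 2 to 44), against 14 over all promoters and 25 over those of expressed coding genes. The letters CCGGAAG, a core that GABP can bind, were present on either strand in 33.8% of member promoters and 10.3% of all promoters, and in 16.9% of those of expressed coding genes and 38.8% of those of mitochondrial ribosomal protein genes. GGGCGG, a core that SP1 can bind, was in 56.2% and 45%, and TATAAA in 7.5% and 11.5%. Over the promoters of expressed coding genes these shares were 66.0% and 6.34%, and over those of expressed members 55.7% and 6.33%. Among expressed genes the order was thus the other way round for GGGCGG, while TATAAA was level. A match is a description, not a bound site.

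Library totals ran from 13466631 to 16799327 expected counts over coding genes. The line's markers MYOD1, MYOG, DES, PAX3, FOXO1, FGFR4 and MYCN were all present in DMSO, at 67.1 to 812 count_norm, while PTPRC, EPCAM, PECAM1, GFAP and ALB stayed at or below 0.872. No pair of libraries agreed within counting noise, the closest being DMSO and NT at 6 h with a chi-square of 1.96 per degree of freedom. The share of quantified reads outside the coding genes was 5.63% and 6.36% in DMSO, 4.64% to 6.37% with A485 and 5.72% to 7.46% with JQAD. It was 8.36% to 11.3% with dCBP and 8.20% to 9.58% with IHK-44, so it moved with the compounds that also stood apart in the ribosomal protein genes. Its part in the results was not tested.

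Averaged over the 20 libraries, 73 of the 82 members had an FPKM (fragments per kilobase of transcript, scaled to depth, as deposited) of at least 100, and 15 of at least 1000. RPL41, which encodes the shortest ribosomal protein, was first at 2368 ± 282 FPKM (SD, n = 20 libraries), although reads were divided with similar sequences and none of its expected counts was whole. RPS2, a small-subunit protein, followed at 1797 ± 132 FPKM and RPL7A, of the large subunit, at 1622 ± 103 FPKM. The ranges of these neighbours over the libraries overlapped, RPL41 running from 1908 to 2982, RPS2 from 1538 to 2117 and RPL7A from 1403 to 1805 FPKM.

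The lowest members were paralogs. RPL10L, a copy of RPL10 known from testis, had 0 count_norm in all 20 libraries. RPL3L, a copy of RPL3 known from striated muscle, ran from 0.0600 to 0.668 count_norm, and RPL39L, a copy of RPL39, from 0 to 0.370. Their parent genes were high, RPL10 at 561 ± 35.1 FPKM, RPL3 at 632 ± 37.4 and RPL39 at 1579 ± 199. None of the expected counts of RPL10 was whole, so its level is uncertain. RPS27L, a p53-inducible copy of RPS27, was expressed at 1.76 ± 0.237 FPKM, and RPL36AL, a copy of RPL36A, at 49.7 ± 7.99 beside 433 ± 55.2 for RPL36A.

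Together the members took 3.22 and 3.16% of the coding counts in DMSO (2 h and 6 h) and 3.12 and 3.22% in NT. With dCBP the share was 3.87, 3.52, 3.44 and 3.70% (1 uM at 2 h and 6 h, then 100 nM at 2 h and 6 h), and with IHK-44 3.71, 3.77, 3.72 and 3.64% in the same order. All 8 of these libraries lay above the 4 control libraries. With A485 the share was 2.95, 3.14, 3.23 and 2.89% and with JQAD 3.12, 3.40, 3.55 and 2.96%, on both sides of the controls.

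**Figure D1:**
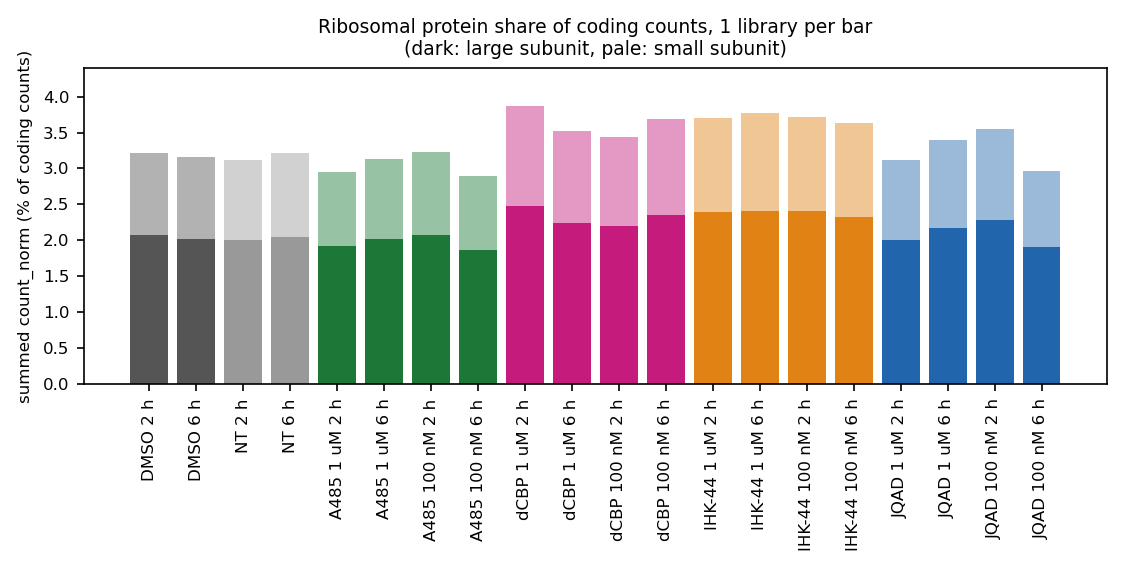
Summed count_norm of the 82 ribosomal protein genes as a percentage of coding counts, 1 bar per library, divided into the large and the small subunit. The dCBP and IHK-44 libraries (3.44% to 3.87%) lie above DMSO and NT (3.12% to 3.22%), an order that turns around in the deposited TPM.

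The direction rests on the scaling. As a share of the deposited TPM (length-scaled transcript shares), which add up over coding and other genes together, the members held 5.52 and 4.85% in DMSO, 5.38% to 6.32% with A485, 3.49% to 4.67% with dCBP and 4.20% to 4.75% with IHK-44. As a share of the coding TPM alone they held 12.3% to 12.5% in DMSO and NT, 12.5% to 14.1% with dCBP, 13.2% to 13.9% with IHK-44, 11.7% to 12.5% with A485 and 12.0% to 13.4% with JQAD. Both directions are thus present in 1 set of libraries, and in bulk RNA fewer transcripts of these genes and more of all others cannot be told apart.

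Single members were set against DMSO at the matching time as log2 ratios of count_norm + 1. With IHK-44, 78 of the 79 members lay above DMSO in each of the 4 libraries, with medians of 0.24, 0.29, 0.25 and 0.26. With dCBP, 76, 70, 62 and 61 members lay above DMSO, with medians of 0.32, 0.23, 0.13 and 0.22. The medians were −0.11, 0.02, 0.04 and −0.11 with A485, −0.04, 0.09, 0.18 and −0.08 with JQAD and −0.04 and 0.02 with NT (2 h and 6 h), on both sides of DMSO. Members above DMSO numbered 6, 43, 50 and 9 with A485, 13, 64, 75 and 18 with JQAD and 16 and 55 with NT. Single libraries of these conditions thus also moved as a family. JQAD at 100 nM for 2 h (75 members, median 0.18) lay above dCBP at 100 nM for 2 h (62 members, median 0.13).

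The median of all 12174 expressed genes also lay above DMSO on this scale, by 0.06 to 0.21 with dCBP and 0.04 to 0.22 with IHK-44. Another comparison is given by the 296 other genes whose level and length lay between the 10th and 90th percentile of the members (126 to 807 count_norm and 500.4 to 2344 bases). They were chosen by range and not matched length by length. Their medians were −0.08 to 0.20 with dCBP and 0.00 to 0.07 with IHK-44, below the members' median in all 8 libraries. The gap was smallest with dCBP at 100 nM for 6 h (0.22 for the members and 0.20 for the comparison genes). With A485 the comparison genes lay at −0.10 to −0.04 and with JQAD at −0.08 to 0.07. Over the 29 genes between the 25th and 75th percentile, the medians were −0.03 to 0.18 with dCBP and 0.05 to 0.07 with IHK-44. Below 1500 bases, the members' fitted medians lay below those of all other genes of like length with both compounds, as given further on.

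**Figure D2:**
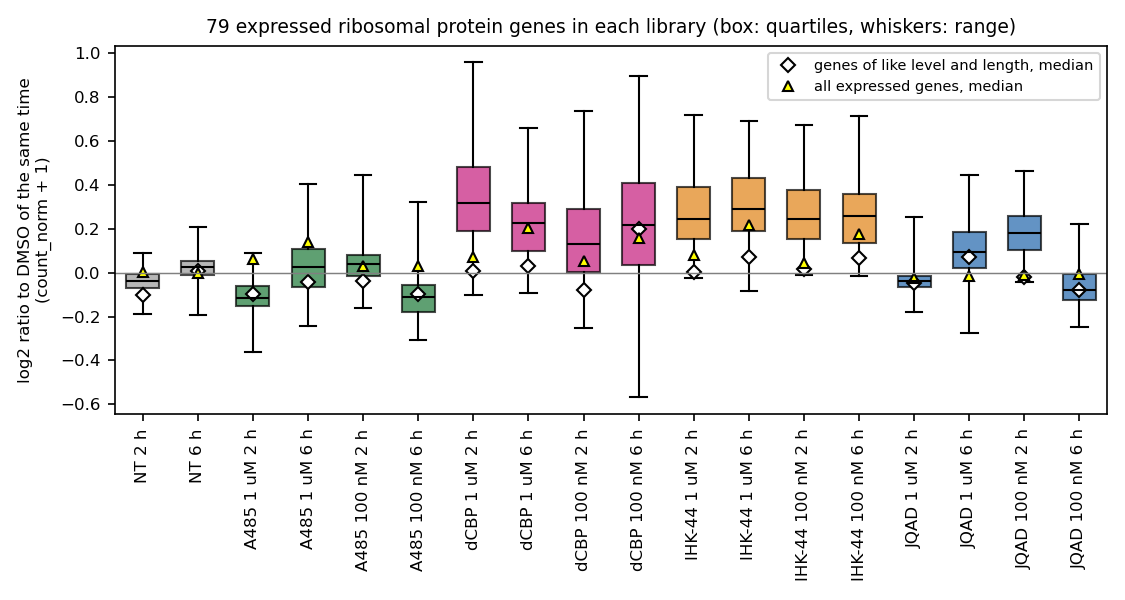
log2 ratio of count_norm + 1 to time-matched DMSO for the 79 expressed members, 1 box per library, beside the median of the 296 genes of like level and length and the median of all expressed genes. The members' median exceeds that of the comparison genes in the 8 dCBP and IHK-44 libraries, by least with dCBP at 100 nM for 6 h, and its position against 0 depends on the scaling.

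The members moved largely together over the 20 libraries. Each member's log2 level correlated with the median of the other members at a median r of 0.88 (range 0.28 to 0.97), a description over libraries that share a scaling. RPL4, RPL11, RPL15 and RPS24, named for having the lowest values, were at r = 0.28, 0.33, 0.34 and 0.40. With dCBP at 100 nM for 6 h, RPL11 and RPS24 lay at −0.39 and −0.57 (log2 ratio to DMSO). In the other dCBP libraries they lay at 0.09 to 0.25 and 0.10 to 0.17. Over all expressed members that library ran from −0.57 to 0.90. The median SD over libraries was 0.17 (log2) for the members, 0.13 for the 296 comparison genes and 0.23 for all expressed genes. Among 9496 other genes, patterns most like the summed level included those of MIF (r = 0.97), NDUFA11 (r = 0.96), ELOB (r = 0.93) and TIMM8B (r = 0.93), over 20 libraries.

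Tests used edgeR's quasi-likelihood method with TMM scaling and Benjamini-Hochberg adjustment over all 13260 genes tested, and a member with an adjusted p under 0.05 was called. All comparisons with DMSO share the same 2 DMSO libraries. With dCBP, 14 of the 79 members (17.7%) were called higher, against 11.8% of all genes, and 1 (1.27%) lower, against 11.8% of all genes. With IHK-44, 12 members (15.2%) were called higher, against 7.74% of all genes, and 0 lower, against 9.21%. The members' median log2 change was 0.13 with dCBP and 0.15 with IHK-44, beside 0.05 and 0.04 over all genes and −0.06 and −0.06 over the 296 comparison genes. Over the 29 genes of the narrower set it was 0.04 and −0.05. Of the 296 comparison genes, 16.2% and 9.80% were called lower and 2.70% and 2.70% higher.

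The calls rested on the 2 DMSO libraries and on the scaling. Counts under the other settings, here and in the next paragraph, are given without the share of all genes called there. They are thus not results about the members alone. Without DMSO at 2 h, 2 members were called with dCBP and 0 with IHK-44, and without DMSO at 6 h, 0 and 0. With DMSO and NT pooled as 4 controls, 24 were called higher and 3 lower with dCBP, and 26 higher and 0 lower with IHK-44. With RLE scaling, 13 were called higher and 2 lower with dCBP and 9 higher with IHK-44. Without a scaling factor, 33 were called higher for each compound, and the median of all genes was then 0.16 and 0.16.

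On log2(deposited TPM + 1) with limma the direction turned, to 26 members lower with dCBP and 23 lower with IHK-44, at members' medians of −0.25 and −0.23 beside −0.25 and −0.27 over all genes. When the TPM were first rescaled to the total of the coding genes, a setting added after the data were seen, 17 were called higher and 1 lower with dCBP, and 21 higher and 0 lower with IHK-44. When the length trend of each library was removed, 13 were called lower and 6 higher with dCBP (median −0.03), and 2 lower and 4 higher with IHK-44 (median −0.01).

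**Figure D3:**
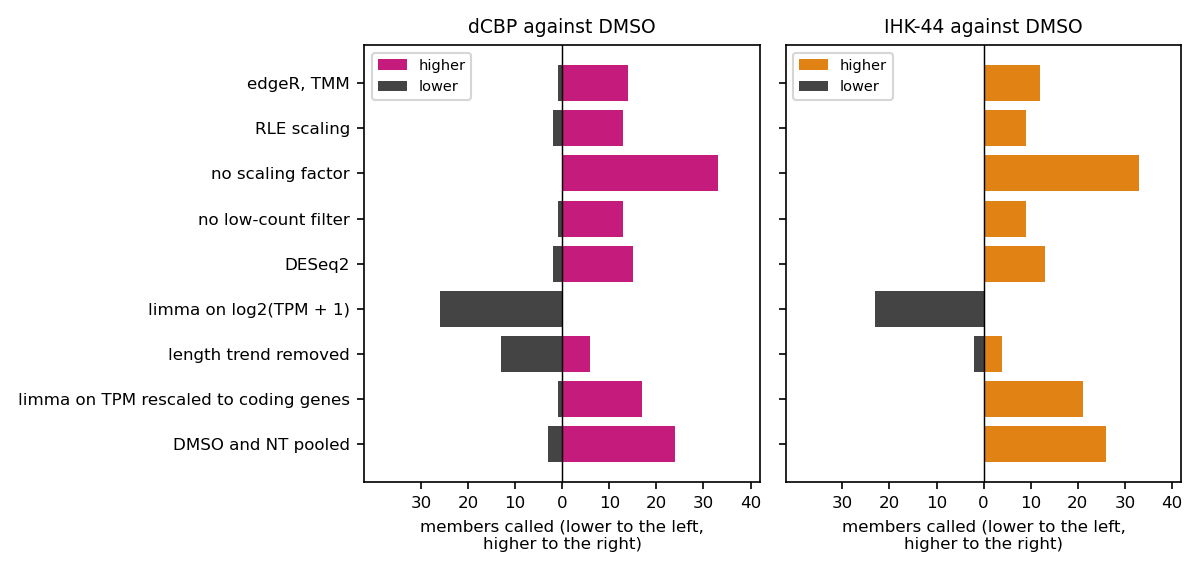
Number of members called higher or lower against DMSO with dCBP and IHK-44 under the edgeR test with TMM scaling and each alternative setting. With dCBP there are 14 higher and 1 lower under TMM scaling, 26 lower on the deposited TPM, and 13 lower and 6 higher with the length trend removed.

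RPS28, a small-subunit protein, stood at 96.0 and 95.4 count_norm in DMSO (2 h and 6 h) and 96.2 and 100.0 in NT, and at 164, 151, 128 and 174 with dCBP (1 uM at 2 h and 6 h, then 100 nM at 2 h and 6 h) and 149.9, 152, 139.9 and 145 with IHK-44. These 8 libraries lay above the 4 controls without overlap, while A485 (100.4, 113, 106 and 90.3) and JQAD (90.3, 123, 123 and 96.2) overlapped them. The log2 change was 0.58 ± 0.13 (SE) with dCBP (edgeR adjusted p = 0.00786) and 0.50 ± 0.13 with IHK-44 (edgeR adjusted p = 0.0193). Only 30.0% of its expected counts were whole, so reads were divided with similar sequences and its level is uncertain.

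RPS27, a zinc-finger protein of the small subunit, stood at 101 and 99.3 count_norm in DMSO and 105 and 108 in NT, and at 162, 150.2, 168 and 114 with dCBP and 166, 161, 157 and 164 with IHK-44. The dCBP library at 100 nM for 6 h was the low one, yet none of the 8 overlapped the controls. The log2 change was 0.46 ± 0.14 with dCBP (edgeR adjusted p = 0.0298) and 0.58 ± 0.14 with IHK-44 (edgeR adjusted p = 0.0155), and on the deposited TPM the dCBP change was −0.01. With the length trend removed neither call remained (edgeR adjusted p = 0.512 and 0.270), and the dCBP call was also lost on rescaled TPM.

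RPS13, also of the small subunit, stood at 145 and 159 count_norm in DMSO and 151 and 165 in NT, and at 209, 218, 223 and 191 with dCBP and 228, 231, 232 and 234 with IHK-44. Again no dCBP or IHK-44 library overlapped the controls. Such a gap does not set called members apart, since 78 of the 79 members lay above DMSO in each IHK-44 library. RPLP0, not called, stood at 1441, 1497, 1490 and 1447 count_norm with IHK-44, above the controls (1325 to 1410). The log2 change was 0.36 ± 0.12 with dCBP (edgeR adjusted p = 0.0367) and 0.49 ± 0.12 with IHK-44 (edgeR adjusted p = 0.0141), and −0.04 with dCBP on the deposited TPM. With the length trend removed RPS13 was called with neither compound (edgeR adjusted p = 0.398 and 0.0995). RPS21, a small-subunit protein, changed by 0.58 ± 0.14 with dCBP (edgeR adjusted p = 0.0132), whereas 0.41 ± 0.14 with IHK-44 missed the threshold (edgeR adjusted p = 0.0572). The dCBP calls of RPS21 and RPL36AL were lost with the length trend removed, and on the deposited TPM RPS28, RPS27, RPS13, RPS21, RPL38, RPL28, RPL36AL and RPLP2 were called higher with neither compound.

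**Figure D4:**
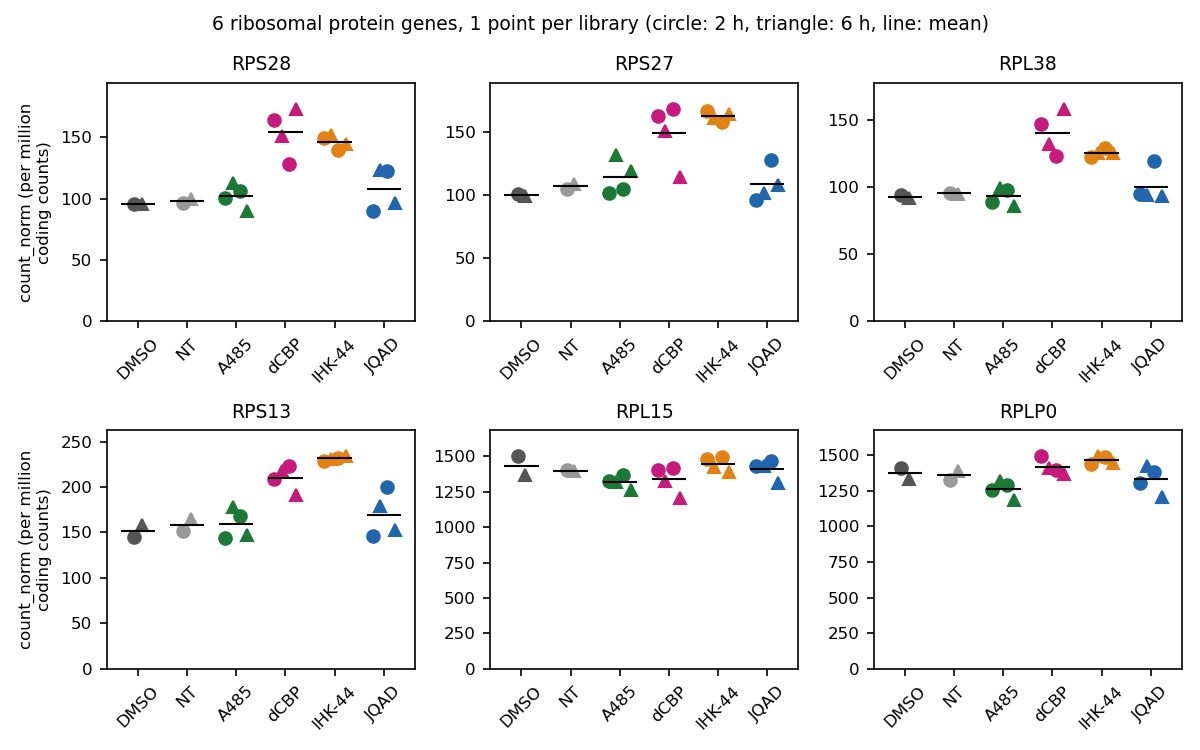
count_norm of RPS28, RPS27, RPL38, RPS13, RPL15 and RPLP0, 1 point per library by compound and time. RPS28, RPS27, RPL38 and RPS13 are higher in the 8 dCBP and IHK-44 libraries than in DMSO and NT. RPLP0, not called, is also higher with IHK-44. RPL15 with both compounds and RPLP0 with dCBP overlap the controls. On the deposited TPM RPS27 and RPS13 with dCBP and RPL38 with IHK-44 change sign.

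Among the large-subunit genes, RPL38 stood at 94.2 and 91.8 count_norm in DMSO and 95.9 and 94.8 in NT, and at 147, 132, 123 and 159 with dCBP and 122, 125, 129 and 126 with IHK-44. Both compounds lay apart from the controls. The log2 change was 0.49 ± 0.11 with dCBP (edgeR adjusted p = 0.00777) and 0.32 ± 0.11 with IHK-44 (edgeR adjusted p = 0.0495, −0.06 on the deposited TPM). The IHK-44 call was lost with RLE scaling, without the low-count filter and with the length trend removed as well (edgeR adjusted p = 0.0599, 0.0618 and 0.0536). None of its expected counts was whole, so its level is uncertain too.

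RPL28, of the large subunit, stood at 332 and 327 count_norm in DMSO and 311 and 328 in NT, and at 502, 454, 379.6 and 529.8 with dCBP and 476, 489, 481 and 464 with IHK-44, without overlap. The log2 changes were 0.39 ± 0.11 and 0.42 ± 0.11 (edgeR adjusted p = 0.0226 and 0.0224). The paralog RPL36AL changed by 0.46 ± 0.13 with dCBP and 0.47 ± 0.13 with IHK-44 (edgeR adjusted p = 0.0225 and 0.0261). Its parent RPL36A was at 0.16 ± 0.10 and 0.30 ± 0.10 and was not called (edgeR adjusted p = 0.246 and 0.0544), and the difference between the paralogs was not tested. None of the expected counts of RPL36A was whole, so its level is uncertain.

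RPL15, of the large subunit, was the 1 member called lower with dCBP. Only 55.0% of the expected counts of RPL15 were whole, so its level is uncertain. It stood at 1504 and 1366 count_norm in DMSO and 1402 and 1394 in NT, and at 1401, 1324, 1418 and 1209.6 with dCBP and 1480.5, 1428, 1492 and 1389 with IHK-44, so the groups overlapped. The log2 change with dCBP was −0.21 ± 0.06 (edgeR adjusted p = 0.0306, not called without a scaling factor) and with IHK-44 −0.10 ± 0.07 (edgeR adjusted p = 0.281). Other members called higher with dCBP included RPL13A, RPL27A, RPL36, RPLP2, RPS15 and RPS26, with log2 changes of 0.32 to 0.41. Others with IHK-44 included RPL27A, RPL32, RPL34, RPS15 and RPS26, with 0.24 to 0.39. None of the expected counts of RPL32 was whole.

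Of the stalk proteins, which recruit translation factors to the large subunit, RPLP2 rose by 0.32 ± 0.11 with dCBP (edgeR adjusted p = 0.0371, −0.09 on the deposited TPM), a call lost without the low-count filter and with the length trend removed. RPLP1 was at 0.17 ± 0.13 (edgeR adjusted p = 0.329) and RPLP0, often used as a reference gene, at −0.06 ± 0.07 (edgeR adjusted p = 0.536). RPL5 and RPL11, which bind MDM2 when ribosome assembly fails, were at −0.16 ± 0.08 and −0.04 ± 0.15 with dCBP (edgeR adjusted p = 0.113 and 0.869). RPL11 stood at 162 and 149 count_norm in DMSO and 162 and 164 in NT. With dCBP it stood at 190, 177, 173 and 114, the 100 nM library at 6 h being the low one. With IHK-44 it stood at 194, 197, 186 and 189, above the controls. RPL3, near the peptidyl-transferase centre, was at −0.11 ± 0.08 with dCBP and −0.11 ± 0.08 with IHK-44 (edgeR adjusted p = 0.325 and 0.343).

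RPS6, a target of S6 kinase, was at −0.10 ± 0.08 with dCBP (edgeR adjusted p = 0.346) and RPS19, known from Diamond-Blackfan anaemia, at 0.14 ± 0.10 (edgeR adjusted p = 0.273). RPS14 stood at 299 and 311 count_norm in DMSO and 449, 376, 377 and 579 with dCBP, the 100 nM library at 6 h being the highest. Its log2 change of 0.44 ± 0.16 missed the threshold (edgeR adjusted p = 0.0559). The ubiquitin fusion gene RPS27A was at 0.16 ± 0.13, RPSA at −0.09 ± 0.08, RPL41 at 0.30 ± 0.13 and RPS27L at 0.11 ± 0.14, none called. Only 15.0% of the expected counts of RPS27A and none of those of RPSA were whole, so their levels are uncertain. RPL10, RPL39, RPS2 and RPL7A lay between −0.06 and 0.11 with dCBP and between −0.07 and 0.17 with IHK-44, again with none called.

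With A485, edgeR called 0 of the 79 members (16 had an unadjusted p under 0.05, and DESeq2 called 0), against 0.271% of all genes. The members' median was −0.11, beside 0.01 over all genes and −0.14 over the 296 comparison genes. RPS3A and RPS3, the lowest members, were at −0.26 ± 0.11 and −0.26 ± 0.11 (edgeR adjusted p = 0.202 and 0.220), and RPL36AL and RPS27, the highest, at 0.14 ± 0.13 and 0.12 ± 0.14. With JQAD, edgeR called 0 members (0 with an unadjusted p under 0.05, 0 by DESeq2), against 0% of all genes, at a median of 0.06. RPL36AL (0.26 ± 0.13) and RPS29 (0.23 ± 0.14) were the highest there and RPS3A (−0.08 ± 0.11) the lowest. With NT, edgeR called 0 members (0 unadjusted, 0 by DESeq2), against 0% of all genes, with log2 changes of −0.11 to 0.08.

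The compounds were then compared with each other, in 1 test of any difference and in 6 pairs, in whose differences the DMSO levels do not enter and whose p-values are adjusted over genes but not over pairs. Of the 79 members, 36 (45.6%) differed between the 4 compounds, against 29.6% of all genes and 22.0% of the 296 comparison genes. A485 lay below IHK-44 in all 79 members by the fitted change, and 15 (19%) were called lower, against 0.505% of all genes. A485 lay below dCBP in 74 members, and 11 (13.9%) were called lower, against 0.475% of all genes. The median differences were −0.26 and −0.24, beside −0.06 and −0.06 over the 296 comparison genes. For A485 against IHK-44 they also varied with gene length. Below 500 bases the median was −0.30 in 8 members and −0.42 in 69 other genes. From 500 to 750 bases it was −0.29 in 29 members and −0.27 in 190 other genes. From 1500 to 3000 bases it was −0.25 in 11 members and −0.05 in 4224 other genes.

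Of the members already described, RPS28, RPS13, RPL28 and RPL38 were called between A485 and IHK-44, with differences of −0.48 ± 0.10, −0.50 ± 0.10, −0.42 ± 0.09 and −0.39 ± 0.09 (edgeR adjusted p = 0.0404, 0.0223, 0.0404 and 0.0426). RPS13 stood at 144, 178, 168 and 148 count_norm with A485, below all 4 IHK-44 libraries, and RPL28 at 331, 369, 349 and 334, again without overlap. Between A485 and dCBP, RPS28, RPL38 and RPS21 were called, with −0.56 ± 0.10, −0.55 ± 0.09 and −0.63 ± 0.12 (edgeR adjusted p = 0.0223, 0.00663 and 0.0207). On the deposited TPM the direction turned, and 68 and 73 members were called higher with A485 than with IHK-44 and dCBP, as were 11186 and 10682 of all genes. With the length trend removed, 1 and 3 members were called lower.

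The pair counts also moved with single libraries. For A485 against IHK-44 they ran from 1 (without IHK-44 at 1 uM for 2 h) to 25 (without dCBP at 100 nM for 6 h), and for A485 against dCBP from 1 (without A485 at 100 nM for 6 h) to 33 (without dCBP at 100 nM for 2 h). IHK-44 lay above JQAD with 11 members called higher (13.9%), against 16.4% of all genes. dCBP lay above JQAD with 10 called higher (12.7%), against 18.9% of all genes, and 2 lower, RPL15 and RPL4. These shares of members called higher lie below the background.

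Between A485 and JQAD, edgeR called 0 members (33 with an unadjusted p under 0.05, 11 by DESeq2), against 4.91% of all genes, at a median of −0.16. Between dCBP and IHK-44, edgeR called 0 (1 unadjusted, 0 by DESeq2), against 0% of all genes. The differences between these 2 compounds lay between −0.22 (RPL11) and 0.20 (RPS14), with SEs of 0.05 to 0.13, which does not show that they act alike.

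Dose was compared within each compound over the 16 treated libraries, with compound and time as a block and 4 residual degrees of freedom. edgeR called 0 members in A485, dCBP, IHK-44 and JQAD, against 0.929%, 0%, 0.107% and 0% of all genes. At an unadjusted p under 0.05 the members numbered 0, 6, 0 and 1, and DESeq2 called 0 in each. The median differences of 1 uM from 100 nM were −0.07, 0.05, −0.01 and −0.03, beside −0.07, −0.06, −0.04 and 0.06 over the 296 comparison genes. Of the 79 members, 77, 23, 47 and 44 lay below 0. The median SE of a single member was 0.13, which bears on single members and not on the medians.

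Time was tested as the difference of the change between 2 h and 6 h from that in DMSO and NT together. edgeR called 0 members, against 0.00754% of all genes for A485, 7.56% for dCBP, 8.24% for IHK-44 and 0% for JQAD. At an unadjusted p under 0.05 the members numbered 1, 13, 1 and 0, and DESeq2 called 0, 1, 0 and 0. The median fitted differences were −0.07, −0.16, −0.13 and −0.12, beside −0.12, −0.04, −0.13 and −0.06 over the 296 comparison genes. Below 0 lay 68, 66, 79 and 74 of the 79 members. These differences hold on the TMM scale. In count_norm against DMSO, the members' median with IHK-44 was 0.24 and 0.29 at 1 uM (2 h and 6 h). At 100 nM it was 0.25 and 0.26, so it was not lower at 6 h. The median of all expressed genes was 0.08 and 0.22 at 1 uM and 0.04 and 0.18 at 100 nM. Without dCBP at 1 uM for 6 h, 9 members were called for dCBP.

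The mean difference between the subunits lay within 1 SD of 0 for each compound. The median ratio of the small-subunit genes minus that of the large-subunit genes lay between −0.06 and 0.08 (log2) over the 18 libraries other than DMSO, with means of −0.01 ± 0.04 for A485, 0.02 ± 0.05 for dCBP, −0.03 ± 0.03 for IHK-44 and 0.01 ± 0.04 for JQAD (SD, n = 4 libraries). The summed counts of the large subunit were 1.74 to 1.86 times those of the small subunit over the 20 libraries. With dCBP, 8 of 47 large-subunit and 7 of 32 small-subunit genes were called (17.0% and 21.9%, against 23.7% of all genes in either direction), and with IHK-44 6 and 6 (12.8% and 18.8%, against 16.9%).

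The changes with dCBP and IHK-44 were largest in the shortest genes, among members and other genes. Below 500 bases (mean deposited length), the median log2 change of 8 members was 0.31 with dCBP and 0.29 with IHK-44, and that of 69 other genes 0.43 and 0.38. From 500 to 750 bases it was 0.18 and 0.17 in 29 members and 0.23 and 0.21 in 190 other genes. From 750 to 1000 bases it was 0.08 and 0.06 in members and 0.14 and 0.13 in other genes. From 1000 to 1500 bases it was 0.06 and 0.04, beside 0.12 and 0.10. From 1500 to 3000 bases it was 0.11 and 0.07, beside 0.07 and 0.05. From 3000 bases on, 5 members lay at 0.13 and 0.07 and 7383 other genes at 0.01 and 0.00. The members' median thus did not fall steadily with length. Up to 1500 bases it was below that of other genes of like length with both compounds. With JQAD the median was also highest below 500 bases (0.12 in members and 0.14 in other genes).

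**Figure D5:**
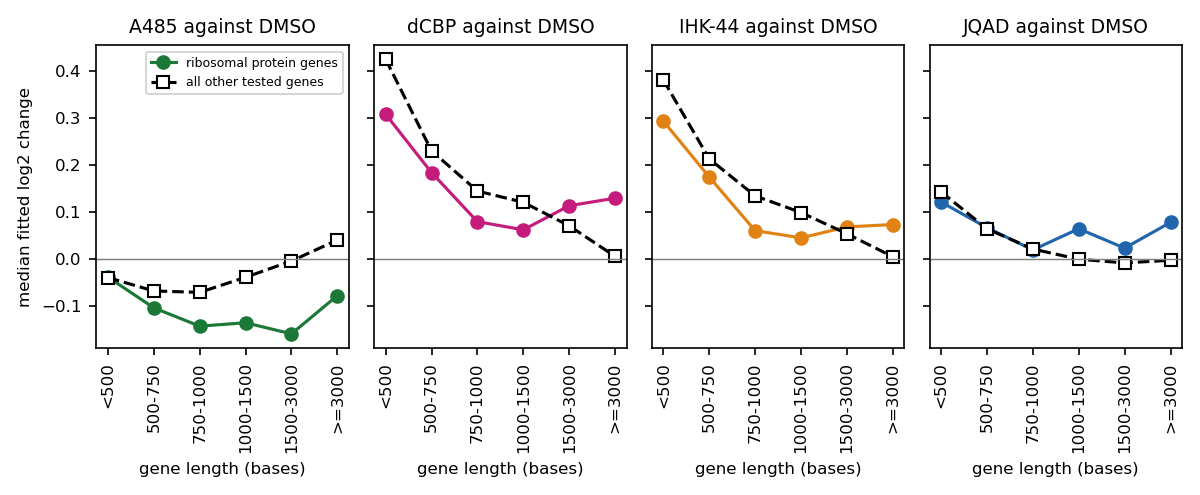
Median log2 change against DMSO (TMM scaling) by gene length for the members and for all other tested genes, by compound. With dCBP and IHK-44 the shortest genes stand highest, and below 1500 bases the members lie below the other genes, in values that depend on the scaling.

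Across the 79 members, as a description, r of the change with log2 mean count_norm was −0.48, −0.51, −0.50 and −0.40 for dCBP, IHK-44, A485 and JQAD, values that share the DMSO libraries. The less abundant members thus lay higher with each compound. Across the 54 tested members with 1 start in the promoter table, r of the change with the CpG number was 0.35, 0.29, 0.20 and 0.34 in the same order, beside −0.04, −0.02, −0.12 and −0.12 over 7555 other genes. With the length of the pyrimidine run it was −0.03, −0.02, 0.04 and 0.08.

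Of 17 genes for translation factors and other TOP mRNAs, 6 (35.3%) fell and 0 rose with dCBP, against 11.8% of all genes lower and 11.8% higher (median −0.12), and edgeR called 0 with IHK-44 (2 unadjusted, median −0.12). The 6 were PABPC1, the poly(A)-binding protein (−0.23 ± 0.06, edgeR adjusted p = 0.0132), EIF3E (−0.38), EIF3L (−0.23), NAP1L1 (−0.36), HNRNPA1 (−0.31) and IPO5 (−0.33). The elongation factor EEF1A1 was at −0.19 ± 0.07 (edgeR adjusted p = 0.0595). Of 78 mitochondrial ribosomal protein genes, 11 rose and 0 fell with dCBP and 8 rose and 0 fell with IHK-44 (14.1% and 10.3% higher, against 11.8% and 7.74% of all genes), at medians of 0.18 and 0.19.

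Of 13 genes of mTORC1 and TOP control, 2 fell (15.4%) and 1 rose (7.69%) with dCBP, against 11.8% and 11.8% of all genes. With IHK-44, 1 fell and 1 rose (7.69% each), against 9.21% and 7.74%. These shares lie near the background. LARP4 fell with dCBP and IHK-44 (−0.48 ± 0.12 and −0.38 ± 0.12, edgeR adjusted p = 0.0148 and 0.0440), and RPS6KB1, an S6 kinase, rose (0.39 ± 0.13 and 0.44 ± 0.13, edgeR adjusted p = 0.0443 and 0.0337). CNBP, a binder of TOP mRNAs, fell with dCBP (−0.34). Of 10 factors known at ribosomal protein promoters, 3 fell and 2 rose with dCBP and 2 fell and 2 rose with IHK-44, where the shares of all genes were 11.8% and 11.8% with dCBP and 9.21% and 7.74% with IHK-44. MYCN was at −3.55 ± 0.60 and −4.37 ± 0.62 (edgeR adjusted p = 0.00196 and 0.000602) and MYC at −4.08 ± 0.73 and −4.66 ± 0.75 (edgeR adjusted p = 0.00268 and 0.00140). NRF1 (0.35 and 0.34) and TBP (0.37 and 0.43) rose with both, and SP3 fell with dCBP (−0.47).

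Of 10 genes for dedicated chaperones of ribosomal proteins and the MDM2 checkpoint, 3 fell and 2 rose with dCBP, 2 fell and 1 rose with IHK-44, and 1 fell with A485, beside the same shares of all genes and 0.271% called with A485. CDKN1A, the p53 target that arrests the cell cycle, fell with A485, dCBP and IHK-44 (−1.12, −0.93 and −1.35), and MDM2, which degrades p53, fell with dCBP and IHK-44 (−0.45 and −0.39). PDCD2L, a relative of the RPS2 chaperone PDCD2, rose with both (0.85 and 0.76), and with dCBP RPS19BP1 rose (0.44) and BCCIP fell (−0.41). With JQAD edgeR called 0 genes of these lists, against the same background of 0 genes.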

How the data were processed

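RNA was measured in 20 libraries of RH4 cells. The tables hold expected counts, TPM and FPKM per gene that the authors deposited, made with STAR 2.5.3a and RSEM 1.3.3 per the submitters' processing notes, which list the builds hg38 and mm10. The deposited count_norm is a CPM: the expected count scaled to the library's coding total. The deposited gene lengths and other columns were used only to describe. TPM and FPKM add up over coding and other genes, so they move with the RNA outside coding genes. Samples were grouped by compound, dose and time from the labels. The members and lists were chosen with earlier results of these data known.

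After rounding, the expected counts went into edgeR 4.0.16 (TMM, low-count filter, 13 residual degrees of freedom for compounds, 9 for time and 4 for dose). Alternatives used limma 3.58.1 and DESeq2 1.42.0 in R 4.3.3, and descriptions Python 3.11.15 with a pseudocount of 1. The scripts were tested on simulated data, where the share of false calls in the dCBP comparison exceeded the nominal rate of the 0.05 threshold, so single calls near the threshold are less certain than their adjusted p states. Named genes were, for each compound, up to 5 called members with the largest rise and fall (where none was called, the 2 highest and 2 lowest), the paralogs ending in L with their parents, 12 well-known members, the 3 highest and lowest per length, and the 5 most alike other genes. Other members named beside a count were chosen after their values were seen, and some items are not reported here. Nothing says that libraries came from separate cultures, so p-values measure the spread between libraries, which may be technical.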

Additional observations from a re-analysis of the deposited data

Results flagged for a closer look

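For 128 groups of 4 libraries, the distance of the highest or lowest library was compared with Dixon's critical value for 4 values, and 3 exceeded it, where chance flags about 1 in 20 groups. RPS3A was at 414.2 count_norm in the dCBP library at 100 nM for 6 h, below the other dCBP libraries. RPL38 was at 119.5 count_norm in the JQAD library at 100 nM for 2 h, above the other JQAD libraries. RPL3 was at 649.6 count_norm in the JQAD library at 100 nM for 6 h, below the others.

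The level of 36 members differed between the 4 compounds by edgeR's F-test of any difference, which is why the compounds were also compared in pairs.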

How the results depend on the processing

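No paired analysis was possible because each condition had 1 library and so shared no replicate numbers with another; time was a term in the fits, and compound and time a block for dose. The count of called members moved or turned direction as follows, and the cause was not tested. These counts, and those with 1 library left out, are given without the share of all genes called in the same setting. Against DMSO, dCBP gave 33 with no scaling factor, 26 (all lower) on the deposited TPM, 19 with the length trend removed and 27 with pooled controls. IHK-44 gave 33, 23 (all lower), 6 and 26, and 21 on rescaled TPM, a setting chosen after seeing the data. A485 gave 1 with pooled controls. A485 against dCBP gave 27 with no scaling factor, 28 by DESeq2, 73 (all higher) on TPM and 3 with the length trend removed, and A485 against IHK-44 gave 30, 31, 68 (all higher) and 1. A485 against JQAD gave 2 with RLE scaling and 11 by DESeq2. dCBP against JQAD gave 33 with no scaling factor, 57 (all lower) on TPM and 18 with the length trend removed, and IHK-44 against JQAD gave 41, 44 (all lower) and 9, and 25 on rescaled TPM. The count differing between compounds became 59, 70 and 14. Time in dCBP gave 1 by DESeq2.

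Leaving out 1 library gave 0 to 24 members for dCBP against DMSO (0 without DMSO at 6 h, 2 without DMSO at 2 h, 24 without dCBP at 100 nM for 2 h). For IHK-44 it gave 0 to 15 (0 without either DMSO library, 7 and 3 without IHK-44 at 1 uM for 2 h and 6 h, 4 without IHK-44 at 100 nM for 6 h). It gave 1 to 33 for A485 against dCBP, 1 to 25 for A485 against IHK-44, 0 to 7 for A485 against JQAD (7 without A485 at 100 nM for 2 h), 6 to 16 for dCBP against JQAD (6 without JQAD at 100 nM for 6 h), and 2 to 20 for IHK-44 against JQAD (2 without IHK-44 at 100 nM for 6 h, 20 without JQAD at 100 nM for 2 h). The count differing between compounds ran from 25 to 47. Dose in dCBP reached 3 (without dCBP at 1 uM for 2 h) and time in dCBP 9 (without dCBP at 1 uM for 6 h).

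On the deposited TPM the log2 changes of RPS27 (−0.0076), RPS3 (−0.38), RPS13 (−0.0407) and RPLP2 (−0.0928) with dCBP and of RPL38 (−0.0555), RPL10 (−0.35) and RPS2 (−0.36) with IHK-44 turned sign. The mean summed share on TPM was 5.18% in DMSO, 5.18% in NT, 5.86% with A485, 4.33% with dCBP, 4.42% with IHK-44 and 5.34% with JQAD. Recentred on the median gene, the median ratio was 0.10 with dCBP and 0.13 with IHK-44. Among the planned and added settings, of the values of counts or groups 131 stayed, 30 moved and 9 turned direction, and of those of single genes 450 kept direction and side of the threshold, 48 newly passed it, 23 lost it and 7 turned sign.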
